A study of Mus musculus with 16 samples.

Results

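Genes that carry out DNA replication and cell division were examined in islet cells of Grp78 flox/flox mice, in which Cre recombinase can remove the gene for the endoplasmic reticulum chaperone GRP78 (gene symbol Hspa5). The 38 genes were taken as a fixed list of S-phase and mitotic genes, by symbol, from the 25105 genes measured, and all 38 were found. Islets of adult mice were dispersed into single cells, transduced with an adenovirus that expresses LacZ (Ad-LacZ, the control) or Cre (Ad-Cre), and kept at 15 mM glucose for 72 hours, with the vehicle DMSO or with the pan-JNK inhibitor JNK-IN-8 from the start (Ad-LacZ + JNK Inh and Ad-Cre + JNK Inh). Each of the 4 groups held 4 libraries, one from each of the preparations F1, M1, M2 and F2 (F, female; M, male), and every preparation bears 2 animal numbers, so each library was taken as a pool and the 4 libraries of a preparation as parallel cultures of the same animals. The study itself names 4 mice, 2 of each sex, so it and the labels differ on the number of animals. Adenovirus can enter any islet cell type, so Ad-Cre is not specific to β cells, and every group carries the floxed alleles and a virus.

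A cell enters the cycle in G1. Cyclin E with its kinase and the E2F transcription factors then switch on the replication genes: CDC6 and CDT1 load the MCM helicase onto origins, the GINS complex activates it, and PCNA clamps the polymerases to DNA. Later, cyclin A, cyclin B and CDK1 drive mitosis, Aurora and Polo-like kinases build the spindle, the BUB proteins watch chromosome attachment, and the anaphase-promoting complex (APC/C) with CDC20 and UBE2C ends it. Adult β cells rarely divide, and transcripts of these genes in whole islets are few and can come from any dividing islet cell, including stellate cells, fibroblasts, endothelial cells and macrophages. In bulk libraries, more cells of a type and more RNA per cell cannot be told apart.

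The measured levels were low. The values are RPKM (reads scaled by gene length and library size), which allows levels to be compared between genes. Averaged over the 16 libraries, the median of the 38 genes was 2.20 RPKM, from 0.325 for Mybl2 to 19.4 for Pcna; 28 genes were above 1 RPKM, 7 above 5, and none was at 0 in every library. Tk1 (thymidine kinase), Mybl2 (B-MYB) and Cenpa (the centromere histone) averaged 0.5 RPKM or less and were left out of the tests, which leaves 35 genes. Their group means ran from 0.316 to 0.462 RPKM for Tk1, from 0.258 to 0.423 for Mybl2 and from 0.286 to 0.425 for Cenpa. Library depth was estimated from RPKM values taken to stand for a single read and the exon length of each gene. It was 15700000 to 23000000 reads for Ad-LacZ, 14300000 to 23800000 for Ad-Cre, 21200000 to 25500000 for Ad-LacZ + JNK Inh and 7700000 to 20800000 for Ad-Cre + JNK Inh. The lowest of these estimates lie below the range of raw counts per sample that the study states, so depth is approximate. At this depth Pcna rested on an estimated 464 to 1688 reads per library, Ccne1 on 89 to 534, Cdk1 on 40 to 238, Ccnb1 on 17 to 97 and Gins2 on 12 to 141.

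Other features of the libraries bear on what follows. Hspa5, the floxed gene, was at 478, 483, 395 and 396 RPKM in the libraries labelled Ad-LacZ (F1, M1, M2 and F2, an order kept throughout) and at 1107, 1114, 1237 and 1598 RPKM in those labelled Ad-Cre, a log2 difference of 1.52 ± 0.19 (SE; limma, adjusted p = 0.00355). The value covers the whole gene and cannot separate transcripts with and without the floxed part, so it does not check the label. The study measured Grp78 by qPCR in parallel aliquots of this RNA, which is not analysed here. Groups are therefore named by their labels only. β cell markers led every library, with a summed level of 33368 to 85014 RPKM over 10 genes. The 11 stellate cell and fibroblast markers summed to 173 to 593 RPKM in Ad-LacZ, 185 to 1996 in Ad-Cre, 176 to 1336 in Ad-LacZ + JNK Inh and 131 to 806 in Ad-Cre + JNK Inh, and none was at 0 throughout. The 12 macrophage markers summed to 93.6 to 106, 102 to 278, 177 to 374 and 214 to 358 RPKM in the same order of groups. The Ad-Cre + JNK Inh library of F2 had the lowest estimated depth, and its column name carries another run and lane code.

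Short promoter motifs mark both parts of the cycle in the textbook account: E2F sites in replication genes, and the cell cycle genes homology region (CHR), usually with CCAAT boxes upstream of it, in genes of G2 and mitosis. RefSeq promoter windows of 300 bases (GRCm38.p6; 250 before the start of transcription and 50 from it) were matched for 31 of the 38 genes; Mcm4, Gins2, Ccne2, Ccna2, Aurkb, Foxm1 and Tpx2 were not matched. The letters searched, on both strands, were TTTCCCGC, TTTCGCGC, TTTGCCGC and TTTGGCGC for E2F, TTTGAA and TTTAAA for CHR, and CCAAT. E2F letters were found in 6 of the 7 origin licensing genes (Mcm3, Mcm5, Mcm6, Mcm7, Cdc6 and Cdt1), and otherwise in Cdk1, against 2.60% of the 27025 genes with a promoter window. CHR letters were found in 14 of the 17 mitotic genes and 5 of the 14 replication and G1/S genes, against 30.6% of all genes, and CCAAT in 14 and 8 of these, against 41.1%. A match describes letters only.

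The stretches upstream of the start of transcription in 7 genes show both patterns; each runs 5′ to 3′ along the gene and ends at the base before the start, with E2F and CHR letters in capitals. The licensing genes Mcm6, Mcm5 and Cdc6 show E2F letters. In Mcm6 they start 110, 106 and 47 bases before the start, and the first pair overlaps on opposite strands, as does the pair in Mcm5, 153 and 149 bases before it. In Cdc6 the match lies on the opposite strand, 138 bases before the start.
Mcm6, chr1:128359706-128359825, minus strand: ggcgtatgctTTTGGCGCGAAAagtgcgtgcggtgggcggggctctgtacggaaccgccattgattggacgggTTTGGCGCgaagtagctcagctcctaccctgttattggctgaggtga
Mcm5, chr8:75109349-75109508, plus strand: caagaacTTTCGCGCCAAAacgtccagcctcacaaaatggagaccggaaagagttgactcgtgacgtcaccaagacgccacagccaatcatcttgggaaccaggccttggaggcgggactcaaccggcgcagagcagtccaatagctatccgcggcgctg
Cdc6, chr11:98907991-98908150, plus strand: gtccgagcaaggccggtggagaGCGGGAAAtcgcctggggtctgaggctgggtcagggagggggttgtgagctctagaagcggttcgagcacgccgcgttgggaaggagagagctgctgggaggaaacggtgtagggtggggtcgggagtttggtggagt
Cdk1, the mitotic kinase, held both kinds, with E2F letters 131 bases and CHR letters 71 and 15 bases before the start. The APC/C genes Cdc20 and Ube2c and the spindle motor gene Kif11 held CHR but no E2F letters, 18, 29 and 19 bases before the start; in Ube2c and Kif11 they lie on the opposite strand.
Cdk1, chr10:69352913-69353062, minus strand: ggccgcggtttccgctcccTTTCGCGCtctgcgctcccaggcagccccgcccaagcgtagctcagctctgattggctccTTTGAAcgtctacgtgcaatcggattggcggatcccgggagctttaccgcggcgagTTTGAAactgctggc
Cdc20, chr4:118437344-118437443, minus strand: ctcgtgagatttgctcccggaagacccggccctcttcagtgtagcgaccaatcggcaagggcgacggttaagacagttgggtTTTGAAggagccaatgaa
Ube2c, chr2:164769829-164769928, plus strand: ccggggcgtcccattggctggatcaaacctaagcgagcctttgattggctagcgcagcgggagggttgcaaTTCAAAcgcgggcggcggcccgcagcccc
Kif11, chr19:37376282-37376381, plus strand: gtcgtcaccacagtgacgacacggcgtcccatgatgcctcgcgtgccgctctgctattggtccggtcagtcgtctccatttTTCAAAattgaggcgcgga

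**Figure D1:**
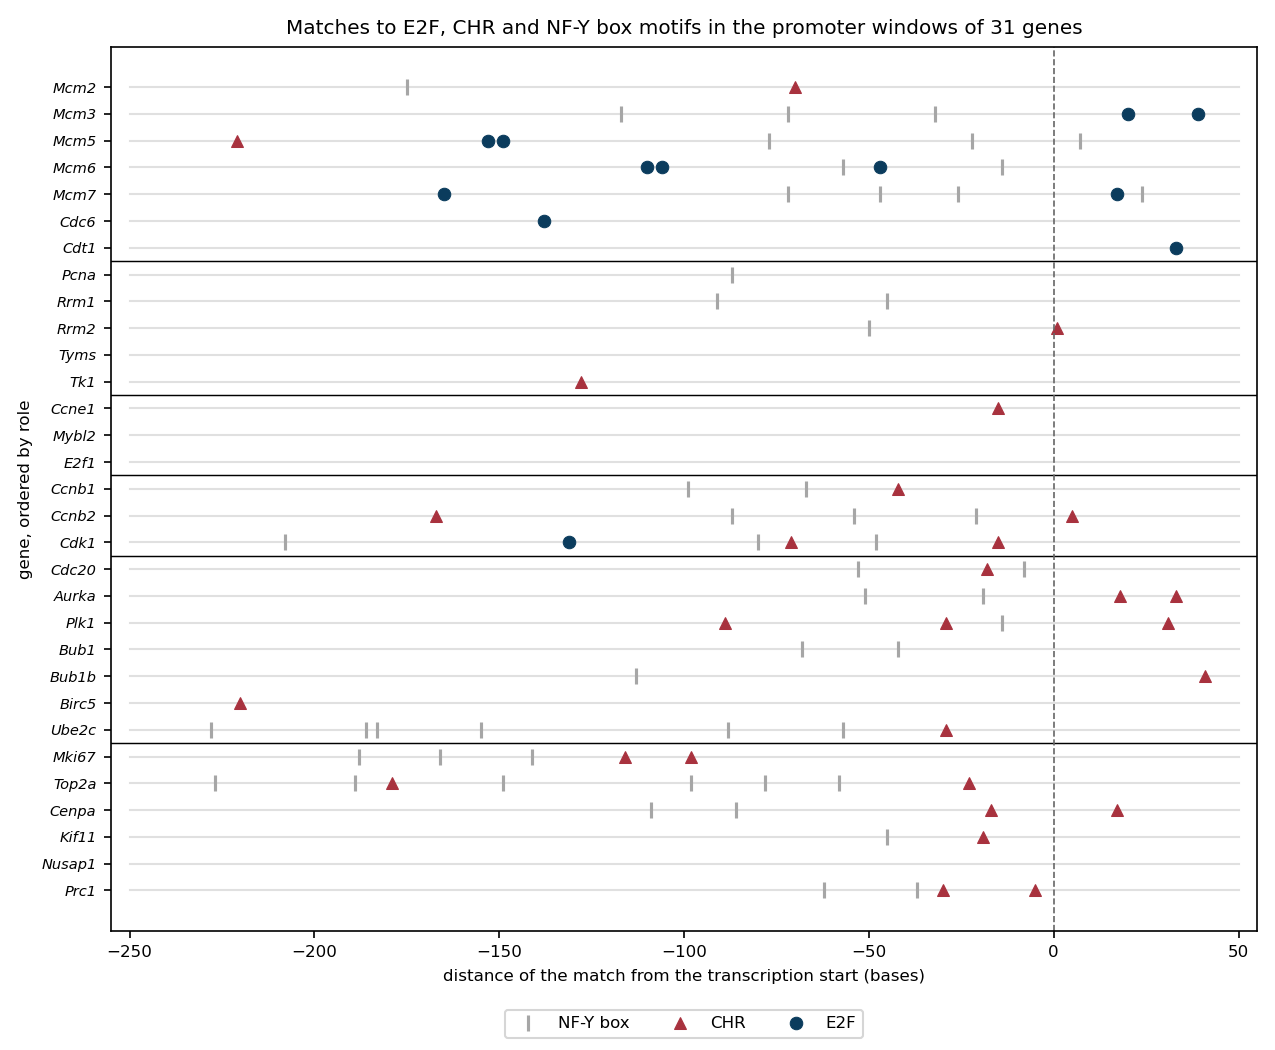
Position of matches to E2F letters (circles), CHR letters (triangles) and the CCAAT box bound by NF-Y (grey ticks) in the promoter windows of 31 genes, as distance in bases from the start of transcription (dashed line); genes are ordered by role, and Mcm7 and Prc1 have 2 windows each. E2F matches lie in 6 of 7 licensing genes and in Cdk1, and CHR matches in 14 of 17 mitotic genes.

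The first comparison set Ad-Cre against Ad-LacZ without the inhibitor. Genes of origin licensing, the polymerase clamp gene Pcna and the cyclin E1 gene Ccne1 were higher where the label was Ad-Cre, and no mitotic gene passed the test. Of the 35 genes tested, 9 rose and none fell at an adjusted p under 0.05 (limma on log2 of scaled RPKM + 0.5, Benjamini-Hochberg over 13103 genes), which is 25.7% of them, while 6.01% of all genes tested rose and 8.02% fell. The 9 were Ccne1, Cdt1, Cdc6, Gins2, Mcm5, Mcm3, Mcm2, Pcna and Mcm7. The median log2 difference was 0.555 over the 16 replication and G1/S genes tested (origin licensing, nucleotide supply, cyclin E and E2f1), 0.13 over the 19 mitotic genes (the others, with Foxm1) and 0.01 over all genes tested.

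Ccne1, which encodes cyclin E1, the partner of CDK2 at entry into S phase, was at 1.97, 2.13, 2.79 and 2.16 RPKM in Ad-LacZ and at 4.32, 3.99, 6.53 and 7.63 RPKM in Ad-Cre. The groups did not overlap, and the mean rose from 2.26 ± 0.364 to 5.62 ± 1.76 RPKM (SD, n = 4), a log2 difference of 1.11 ± 0.15 (SE; adjusted p = 0.00545). Its paralogue Ccne2 went the other way in 3 of 4 preparations and did not pass the test (log2 difference -0.14 ± 0.20, 95% interval -0.61 to 0.32). E2f1, an activator of replication genes, was at 4.9, 4.72, 4.54 and 4.31 RPKM in Ad-LacZ and 6.78, 5.04, 5.23 and 5.93 RPKM in Ad-Cre; it was higher in 4 of 4 preparations, with no overlap, but did not pass (log2 difference 0.28 ± 0.15, adjusted p = 0.24).

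Among the 9 genes of origin licensing and the replicative helicase, 7 rose. Cdt1, the licensing factor that loads MCM complexes, was at 1.1, 1.36, 1.3 and 0.733 RPKM in Ad-LacZ and 3.21, 2.27, 3.72 and 3.24 RPKM in Ad-Cre, with no overlap. Its log2 difference of 1.15 ± 0.17 (adjusted p = 0.00587) was the largest of the 35 at the pseudocount of 0.5 RPKM. Cdc6, which works with CDT1 at origins, was at 0.291, 0.353, 0.432 and 0.282 RPKM in Ad-LacZ and 0.831, 1.03, 1.43 and 1.2 RPKM in Ad-Cre, with a log2 difference of 0.93 ± 0.12 (adjusted p = 0.00436). The pseudocount lowers the difference of such weak genes: at 0.1 RPKM it was 1.46 for Cdc6 and 1.40 for Cdt1, and the ratio of mean RPKM was 3.31 for Cdc6 and 2.77 for Cdt1. Every preparation was higher for both genes.

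The subunits of the helicase itself had smaller differences than its loaders. Mcm2 was at 2.47, 2.94, 2.99 and 2.24 RPKM in Ad-LacZ and 4.09, 3.92, 4.39 and 4.38 RPKM in Ad-Cre (log2 difference 0.58 ± 0.11, adjusted p = 0.015). Mcm3 was at 1.73, 2.0, 2.48 and 1.71 RPKM in Ad-LacZ and 2.5, 2.69, 5.04 and 3.35 RPKM in Ad-Cre (log2 difference 0.61 ± 0.15, adjusted p = 0.032). In both, each Ad-Cre library exceeded each Ad-LacZ library, though in Mcm3 the lowest Ad-Cre value and the highest Ad-LacZ value were close. Mcm5 was at 2.19, 2.95, 2.59 and 1.73 RPKM in Ad-LacZ and 4.04, 3.63, 4.37 and 3.39 RPKM in Ad-Cre (log2 difference 0.62 ± 0.16, adjusted p = 0.038). Mcm7 was at 3.39, 3.87, 3.81 and 3.55 RPKM in Ad-LacZ and 4.53, 4.77, 6.99 and 6.12 RPKM in Ad-Cre (log2 difference 0.53 ± 0.10, adjusted p = 0.0142), highest in the M2 and F2 libraries labelled Ad-Cre. The remaining subunits Mcm4 (log2 difference 0.24 ± 0.13, 95% interval -0.05 to 0.54) and Mcm6 (log2 difference 0.31 ± 0.16, -0.05 to 0.67) did not pass.

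Gins2, a GINS subunit, was at 0.197, 0.497, 0.488 and 0.27 RPKM in Ad-LacZ and 0.565, 0.645, 1.32 and 1.29 RPKM in Ad-Cre (log2 difference 0.71 ± 0.20, adjusted p = 0.046). Its value is uncertain, because 67.3% of its annotated exon length (GENCODE M21, chr8:120578633-120589304) overlaps an exon of Gse1 on the opposite strand, and the counting is not stated to use strand. Gse1 itself did not pass the test and had a negative log2 difference of -0.38. Pcna, the polymerase clamp, was at 13.8, 15.4, 13.9 and 11.7 RPKM in Ad-LacZ and 20.8, 19.9, 21 and 20.7 RPKM in Ad-Cre (log2 difference 0.58 ± 0.12, adjusted p = 0.0217), with Ad-Cre libraries close to one another and all above Ad-LacZ. Of the nucleotide supply genes, Rrm2, the inducible subunit of ribonucleotide reductase, was at 1.58, 3.42, 4.39 and 3.04 RPKM in Ad-LacZ and 2.53, 2.83, 7.08 and 4.47 RPKM in Ad-Cre and overlapped widely (log2 difference 0.35 ± 0.29, adjusted p = 0.439). Its partner Rrm1 (log2 difference 0.10 ± 0.18) and Tyms, thymidylate synthase (log2 difference 0.15 ± 0.12), did not pass either.

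**Figure D2:**
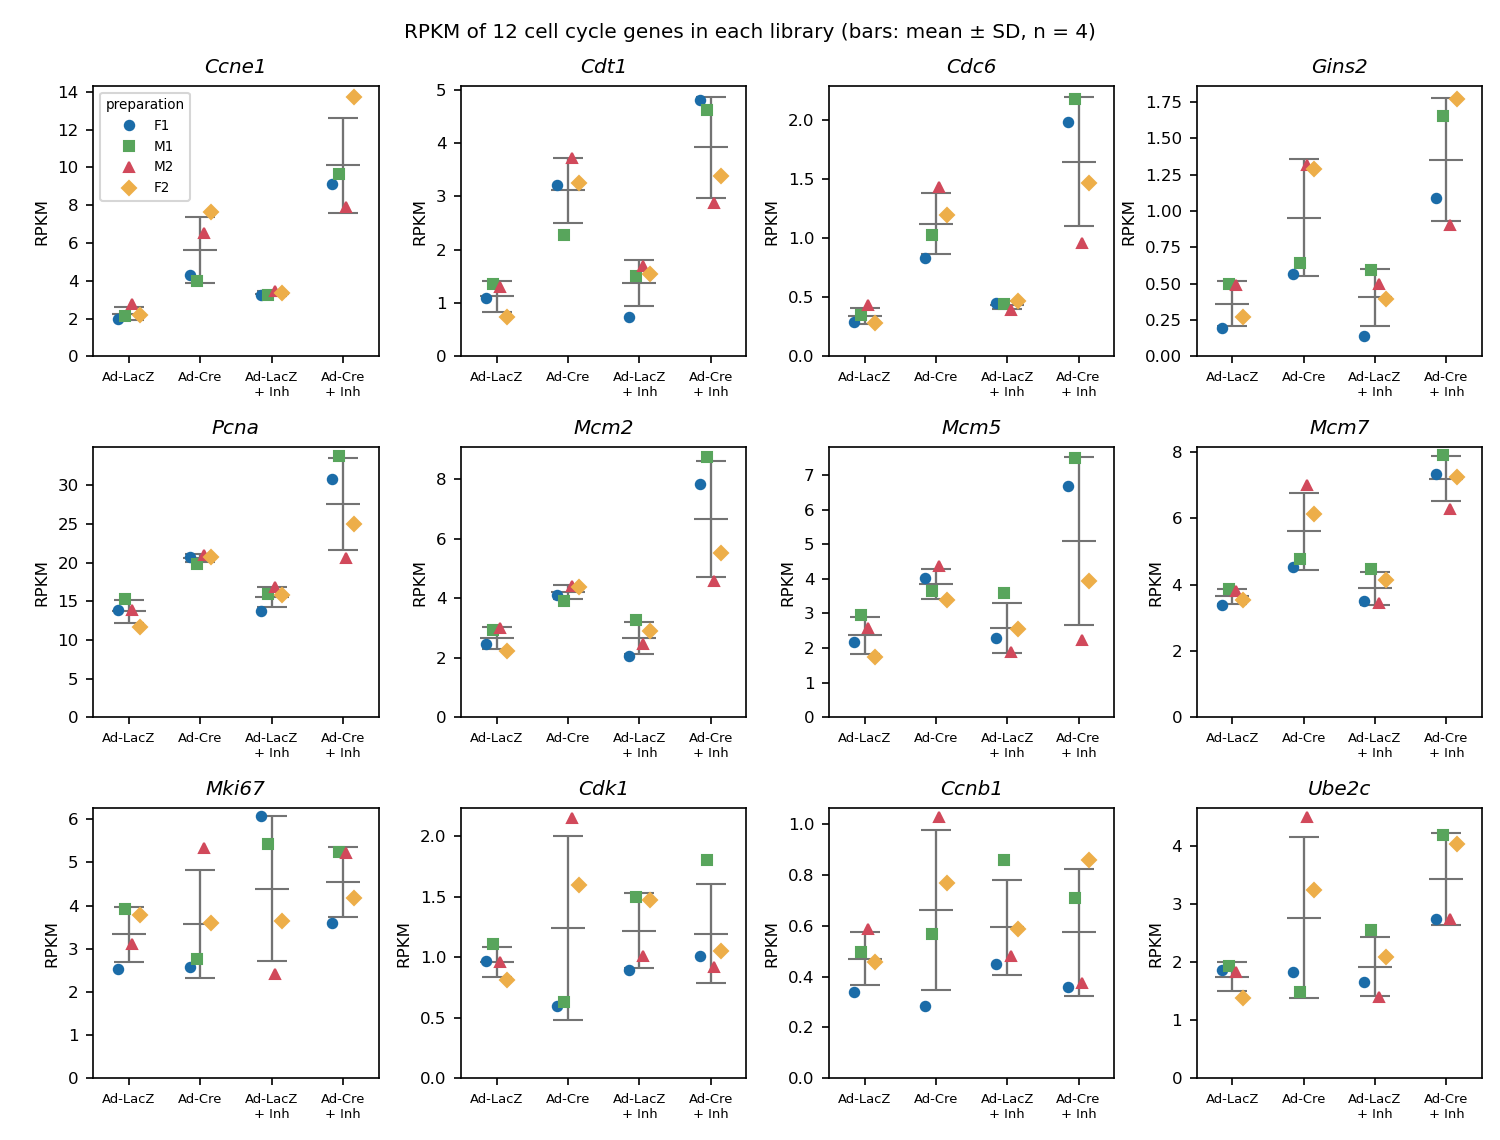
RPKM of 12 genes in each of the 16 libraries by group (Inh, JNK inhibitor), with points coloured by preparation and grey bars giving mean ± SD (n = 4). In the upper 8 genes each Ad-Cre library lies above each Ad-LacZ library, whereas in Mki67, Cdk1, Ccnb1 and Ube2c the Ad-Cre points spread, with M2 highest and F1 or M1 lowest. The share of all genes without overlap was not computed.

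None of the 19 mitotic genes tested passed the adjusted p of limma in either direction. At an unadjusted p under 0.05, Top2a was higher and Aurka lower, while 1799 of all 13103 genes were higher and 2268 lower. The preparations disagreed. Cdk1, the kinase that starts mitosis, was at 0.971, 1.11, 0.961 and 0.812 RPKM in Ad-LacZ and 0.597, 0.629, 2.15 and 1.6 RPKM in Ad-Cre, so F1 and M1 were lower with Ad-Cre and M2 and F2 higher. The log2 difference was 0.13 ± 0.25, with a 95% interval of -0.43 to 0.70. Ccnb1, its cyclin partner, was at 0.34, 0.498, 0.588 and 0.459 RPKM in Ad-LacZ and 0.283, 0.567, 1.03 and 0.768 RPKM in Ad-Cre (log2 difference 0.21 ± 0.18, interval -0.21 to 0.62). Mki67, which encodes the proliferation antigen Ki-67, was at 2.52, 3.91, 3.12 and 3.77 RPKM in Ad-LacZ and 2.58, 2.77, 5.33 and 3.6 RPKM in Ad-Cre, with a log2 difference of 0.05 ± 0.18 (interval -0.36 to 0.46). Without M2 its log2 difference was -0.14. Top2a, topoisomerase IIα, was at 2.25, 2.94, 2.1 and 2.44 RPKM in Ad-LacZ and 2.37, 2.8, 5.57 and 3.85 RPKM in Ad-Cre (log2 difference 0.44 ± 0.19, adjusted p = 0.157), also highest in M2 and F2.

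Most other mitotic genes showed the same division. After scaling, the number of the 19 that were higher with Ad-Cre was 6, 3, 18 and 16 in the respective preparations. The ubiquitin carrier gene Ube2c was at 1.86, 1.93, 1.82 and 1.38 RPKM in Ad-LacZ and 1.83, 1.48, 4.49 and 3.24 RPKM in Ad-Cre (log2 difference 0.44 ± 0.23, adjusted p = 0.246). Log2 differences ran from -0.42 for Aurka (Aurora A), which was lower in 4 of 4 preparations, to 0.51 for Cdc20 (the APC/C activator), with Aurkb, Plk1, Bub1, Bub1b, Birc5 (survivin), Ccna2, Ccnb2, Foxm1, Kif11, Nusap1, Tpx2 and Prc1 (spindle and cytokinesis proteins among the last 4) between them. Over the 19, the median log2 difference within a preparation was -0.12, -0.26, 0.77 and 0.35. Over the 16 replication and G1/S genes it was 0.56, 0.26, 0.59 and 0.68, above 0 in every preparation.

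Some marker lists of other cells moved with this split and others did not. The summed α cell markers in Ad-Cre were 1.11, 0.93, 1.06 and 0.928 times those in Ad-LacZ. The ratios were 1.12, 0.961, 0.96 and 0.89 for δ cell and 1.17, 1.1, 1.21 and 1.05 for duct markers. Those of the β cell markers were 0.994, 0.901, 0.644 and 0.783, lowest in M2 and F2. This sum comes mostly from Ins1 and Ins2, as the α and δ cell sums do from Gcg and Sst. Of the 10 β cell markers, 1, 0, 0 and 1 were higher, and their median log2 difference was -0.66, -0.53, -1.44 and -1.04. The summed level of the 11 stellate cell and fibroblast markers in Ad-Cre was 1.07, 1.01, 3.37 and 2.04 times that in Ad-LacZ, and 3, 6, 11 and 11 of the 11 genes were higher. For the 12 macrophage markers the ratios were 1.04, 1.17, 2.97 and 2.27, with 9, 10, 12 and 12 genes higher. In the same order, the summed level of the mitotic cyclins and Cdk1 had ratios of 0.738, 0.824, 2.26 and 1.35, and that of the 9 licensing genes 1.5, 1.16, 1.77 and 1.85. The 8 T and B lymphocyte markers, at a summed level of 0.48 to 5.88 RPKM in Ad-Cre, had ratios of 0.757, 0.715, 3.71 and 3.42, with 0, 2, 8 and 8 genes higher, and the 10 endothelial markers 1.08, 0.886, 1.87 and 1.22, with 4, 3, 10 and 6 genes higher. As single genes, none of the 11 stellate cell and fibroblast markers passed limma's test, at the adjusted or the unadjusted threshold. Of 11 macrophage markers tested 3 rose (5 with the block), of 9 duct markers 2 rose (3 with the block, where 1 fell), and of 10 β cell markers 1 fell (7 with the block; 6 at an unadjusted p under 0.05; list median -0.86). No gene passed of 7 α cell (1 fell with the block), 4 δ cell and 9 endothelial markers; 2 of 10 acinar, 1 of 8 lymphocyte and 1 of 6 Schwann cell markers were high enough to be tested, and none passed. With F1 and M1 alone and the preparation as a block, the median log2 difference was 0.44 over the licensing genes and -0.15 over the mitotic cyclins and Cdk1. The part of these cells in the mitotic and licensing values was not tested.

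**Figure D3:**
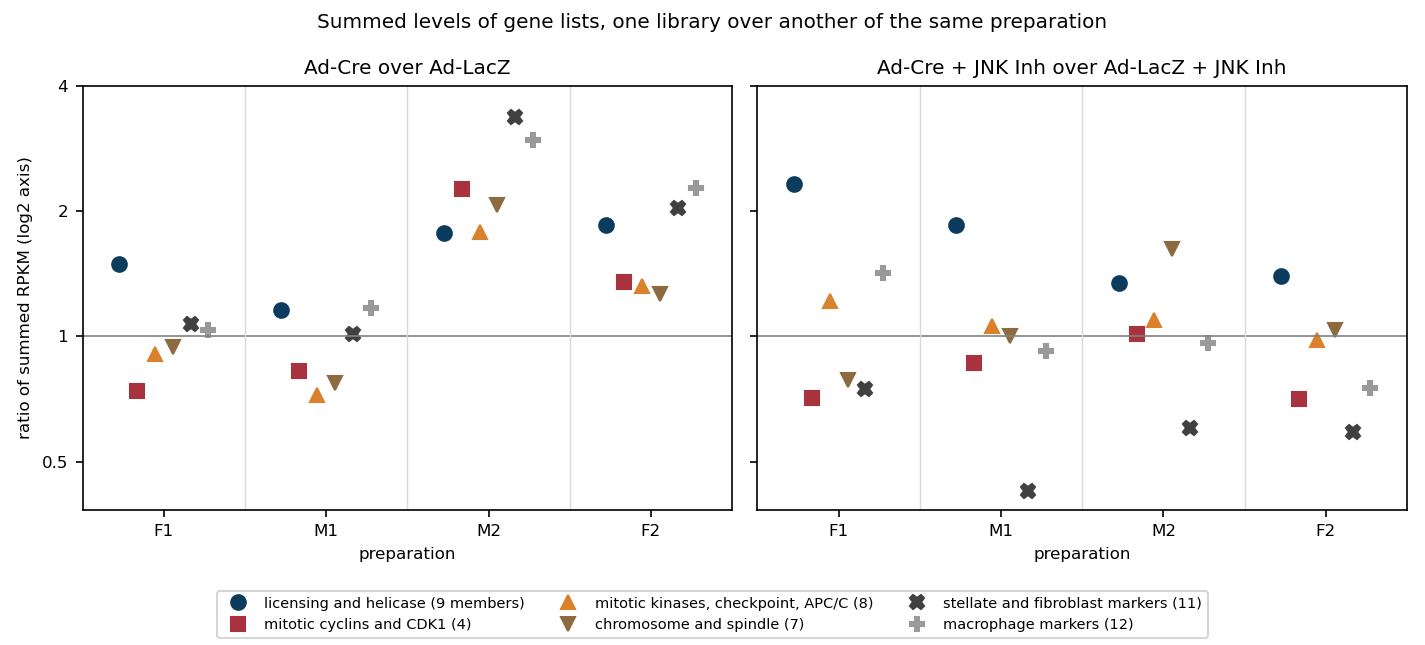
Ratio of summed RPKM between libraries of the same preparation, without (left) and with the inhibitor (right), on a log2 axis, for 4 role groups and for stellate cell and fibroblast and macrophage markers. Licensing genes lie above 1 in all 8 ratios; without the inhibitor, mitotic groups lie below 1 in F1 and M1 and above 1 in M2 and F2, as the stellate cell and fibroblast markers rise, and with the inhibitor those markers lie below 1 in every preparation.

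The count depended on each preparation. Leaving out F1, M1 or M2 left 3 genes past the threshold each time, Ccne1, Cdc6 and Cdt1, and leaving out F2 left none, when 86 of all genes passed in place of 1839; the largest adjusted p of Ccne1, Cdc6 and Cdt1 was then 0.0585. Over the 4 fits the lowest log2 difference of these was 0.885, for Cdc6. The exact two-sided permutation test of 4 against 4 gave p = 0.0286, the smallest it can give, for each of the 9 genes. These genes had been picked by limma on the same libraries, so this p-value is no separate support. The share of all genes that reach it, or whose groups do not overlap, was not computed, so neither sets these genes apart from others. With the preparation as a block, the same 9 genes passed, while 12.7% of all genes rose. With F1 and M1 alone and the block, limma called none of the 13103 genes, and the log2 differences were 0.93 for Ccne1, 0.84 for Cdc6 and 0.95 for Cdt1.

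**Figure D4:**
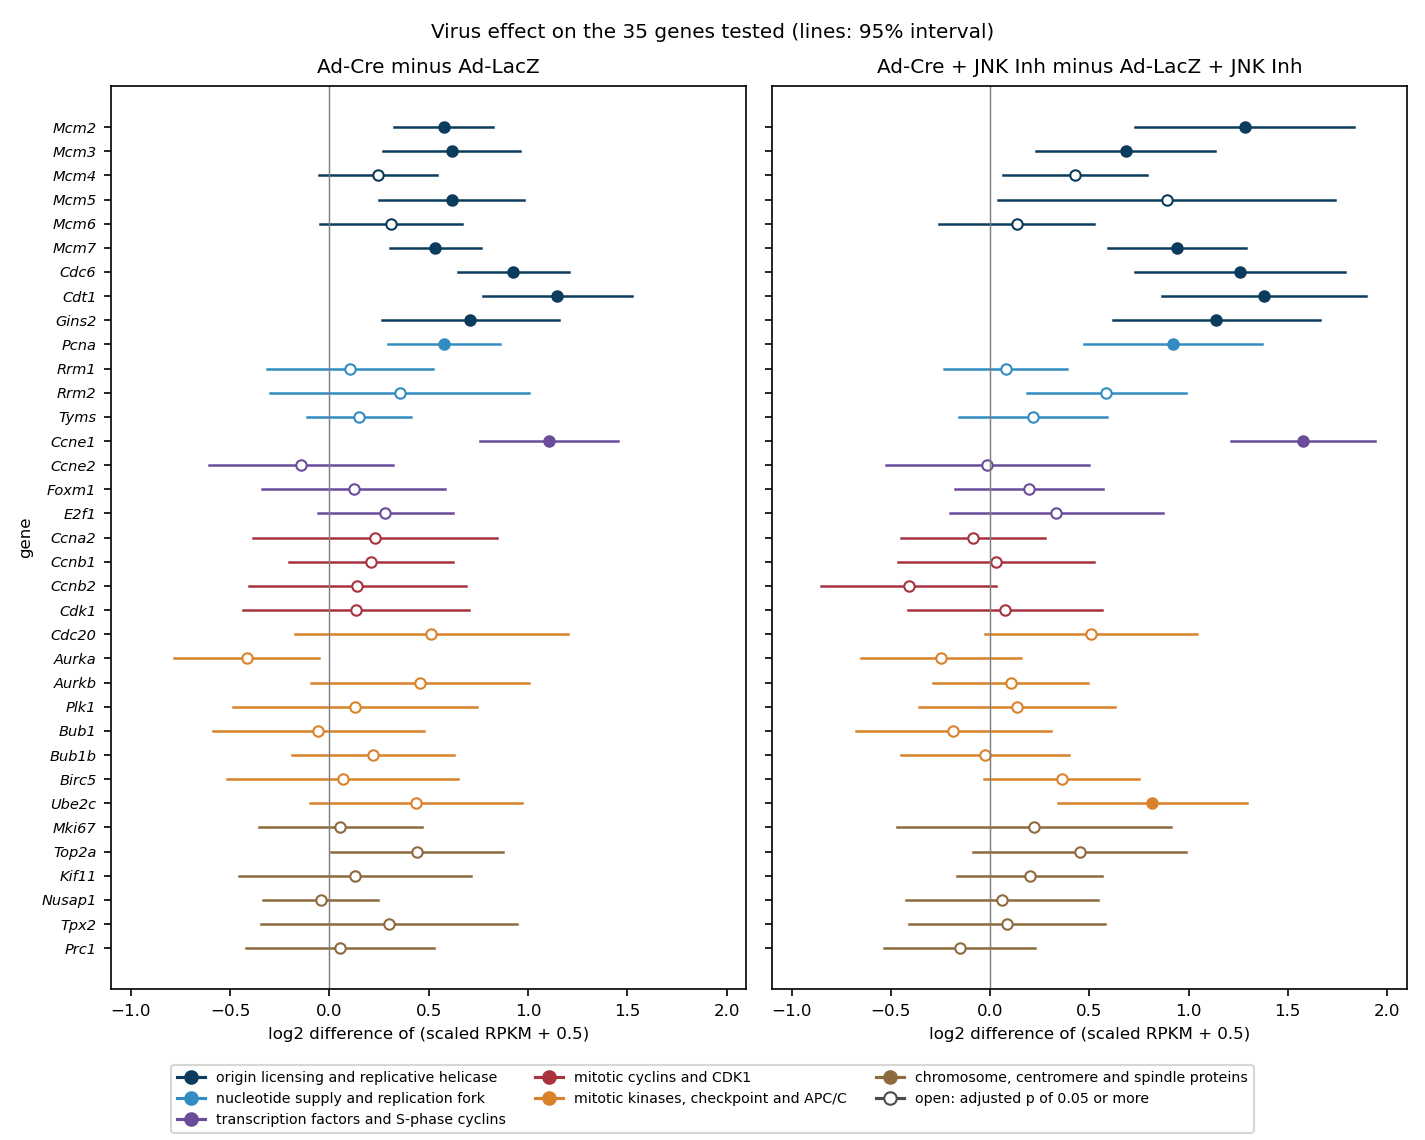
Log2 difference between Ad-Cre and Ad-LacZ for the 35 genes tested, without (left) and with the JNK inhibitor (right); lines are 95% intervals from limma, filled points have an adjusted p under 0.05, and colours give the role. Filled points are 7 licensing genes, Pcna and Ccne1 on the left, and 6 licensing genes, Pcna, Ccne1 and Ube2c on the right.

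The same contrast with the inhibitor present rested on the other 8 libraries, which come from the same preparations. Licensing genes, Pcna and Ccne1 were again higher with the Ad-Cre label. Of the 35 genes, 9 rose and none fell, 25.7% again, while 8.52% of all genes tested rose and 9.28% fell. Mcm5 was no longer among them and Ube2c was. With RPKM as deposited, without the scaling, 929 of all genes rose and 2130 fell in place of 1116 and 1216, as the median of all genes moved from -0.045 to -0.16, and 8 of the 35 rose. The median log2 difference was 0.79 over the 16 replication and G1/S genes, 0.09 over the 19 mitotic genes and -0.045 over all genes tested.

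Ccne1 was at 3.23, 3.25, 3.48 and 3.33 RPKM in Ad-LacZ + JNK Inh and 9.11, 9.65, 7.92 and 13.7 RPKM in Ad-Cre + JNK Inh, a log2 difference of 1.58 ± 0.16 (adjusted p = 0.000772). This was the largest of the 35 at the pseudocount of 0.5 RPKM; at 0.1 RPKM it was 1.69 for Ccne1, 1.77 for Cdc6 and 1.72 for Gins2. It is also the only gene of the 35 that passed whichever preparation was left out. Cdt1 was at 0.736, 1.5, 1.7 and 1.55 RPKM in Ad-LacZ + JNK Inh and 4.8, 4.63, 2.87 and 3.38 RPKM in Ad-Cre + JNK Inh (log2 difference 1.38 ± 0.23, adjusted p = 0.00549). Cdc6 was at 0.451, 0.438, 0.389 and 0.466 RPKM in Ad-LacZ + JNK Inh and 1.98, 2.17, 0.961 and 1.46 RPKM in Ad-Cre + JNK Inh (log2 difference 1.26 ± 0.23, adjusted p = 0.00853). All Ad-Cre + JNK Inh libraries exceeded all Ad-LacZ + JNK Inh libraries in these genes, and in Cdt1 and Cdc6 the F1 and M1 libraries were the highest.

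Mcm2 was at 2.05, 3.28, 2.45 and 2.9 RPKM in Ad-LacZ + JNK Inh and 7.84, 8.74, 4.57 and 5.53 RPKM in Ad-Cre + JNK Inh (log2 difference 1.28 ± 0.24, adjusted p = 0.00935). Mcm7 was at 3.5, 4.47, 3.44 and 4.14 RPKM in Ad-LacZ + JNK Inh and 7.32, 7.92, 6.29 and 7.23 RPKM in Ad-Cre + JNK Inh (log2 difference 0.94 ± 0.15, adjusted p = 0.00524). Neither overlapped between groups. Mcm3 was at 1.74, 2.67, 2.5 and 3.02 RPKM in Ad-LacZ + JNK Inh and 4.26, 4.87, 2.81 and 3.62 RPKM in Ad-Cre + JNK Inh and overlapped through M2 (log2 difference 0.68 ± 0.20, adjusted p = 0.0453). Mcm5 was at 2.3, 3.59, 1.9 and 2.55 RPKM in Ad-LacZ + JNK Inh and 6.68, 7.5, 2.25 and 3.92 RPKM in Ad-Cre + JNK Inh, with M2 and F2 far below F1 and M1 (log2 difference 0.89 ± 0.38, adjusted p = 0.132). Mcm4 (log2 difference 0.43 ± 0.16) and Mcm6 (log2 difference 0.13 ± 0.17) did not pass here either. Gins2 was at 0.138, 0.592, 0.497 and 0.393 RPKM in Ad-LacZ + JNK Inh and 1.09, 1.66, 0.902 and 1.77 RPKM in Ad-Cre + JNK Inh (log2 difference 1.14 ± 0.23, adjusted p = 0.0117).

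Pcna was at 13.8, 15.9, 16.8 and 15.8 RPKM in Ad-LacZ + JNK Inh and 30.9, 33.9, 20.6 and 25 RPKM in Ad-Cre + JNK Inh (log2 difference 0.92 ± 0.20, adjusted p = 0.0146). Rrm2 was at 1.69, 3.36, 3.25 and 3.81 RPKM in Ad-LacZ + JNK Inh and 3.29, 3.79, 4.87 and 5.05 RPKM in Ad-Cre + JNK Inh and lay at the threshold (log2 difference 0.59 ± 0.18, adjusted p = 0.0507). E2f1 was at 5.31, 6.82, 5.75 and 5.34 RPKM in Ad-LacZ + JNK Inh and 7.99, 8.65, 4.42 and 6.61 RPKM in Ad-Cre + JNK Inh, with the M2 library labelled Ad-Cre + JNK Inh below all others (log2 difference 0.33 ± 0.24, adjusted p = 0.36). Ccne2 had a log2 difference of -0.01 ± 0.23 (interval -0.53 to 0.50).

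Among mitotic genes, Ube2c was at 1.65, 2.54, 1.4 and 2.08 RPKM in Ad-LacZ + JNK Inh and 2.74, 4.18, 2.75 and 4.03 RPKM in Ad-Cre + JNK Inh, higher in 4 of 4 preparations with no overlap (log2 difference 0.82 ± 0.21, adjusted p = 0.0284). Mki67 was at 6.07, 5.43, 2.41 and 3.65 RPKM in Ad-LacZ + JNK Inh and 3.59, 5.23, 5.21 and 4.17 RPKM in Ad-Cre + JNK Inh, lower with Ad-Cre in F1 and higher by the most in M2 (log2 difference 0.22 ± 0.30, interval -0.47 to 0.91). Cdk1 was at 0.899, 1.5, 1.01 and 1.47 RPKM in Ad-LacZ + JNK Inh and 1.01, 1.8, 0.919 and 1.05 RPKM in Ad-Cre + JNK Inh (log2 difference 0.07 ± 0.22, interval -0.41 to 0.56). Ccnb1 was at 0.448, 0.857, 0.483 and 0.587 RPKM in Ad-LacZ + JNK Inh and 0.357, 0.708, 0.374 and 0.86 RPKM in Ad-Cre + JNK Inh (log2 difference 0.03 ± 0.22, interval -0.46 to 0.53). The direction of Cdk1 and Ccnb1 depended on the scaling, since both turned negative with RPKM as deposited. Top2a was at 2.75, 4.36, 2.37 and 3.36 RPKM in Ad-LacZ + JNK Inh and 3.58, 5.79, 3.37 and 3.88 RPKM in Ad-Cre + JNK Inh (log2 difference 0.45 ± 0.24, adjusted p = 0.215). Ccnb2 had the lowest log2 difference of the 35 at -0.41 ± 0.20 and passed, as a fall, when M2 was left out.

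With the preparation as a block, 12 of the 35 genes rose, 34.3%, while 10.4% of all genes rose. The block added Mcm5 (adjusted p = 0.0277), Rrm2 (0.0299) and Top2a (0.0387). The count moved with that over all genes, of which 2332 passed with every preparation. Without F1, 5 of the 35 and 1322 of all genes passed, without M1 2 (Ccne1 and Mcm7) and 412, without M2 11 (10 higher, and Ccnb2 lower) and 3139, and without F2 1 (Ccne1) and 208. Over these fits the log2 difference ran from 1.43 to 1.68 for Ccne1, from 0.92 to 0.97 for Mcm7, from 1.12 to 1.39 for Mcm2 and from 0.53 to 0.81 for Mcm3. Leaving out the Ad-Cre + JNK Inh library of F2 alone left 7 of the 35 and 1326 of all genes. With F1 and M1 alone and the block, 6 of the 35 (Ccne1, Cdc6, Cdt1, Gins2, Mcm2 and Pcna) and 711 of all genes passed. The summed level of stellate cell and fibroblast markers was here 0.747, 0.425, 0.603 and 0.589 times that in Ad-LacZ + JNK Inh, below 1 in every preparation, and 1, 0, 0 and 0 of the 11 genes were higher. The macrophage ratios were 1.42, 0.923, 0.965 and 0.752. Those of the δ cell markers were 1.43, 1.16, 2.25 and 1.95 and of the α cell markers 1.03, 1.01, 2.09 and 1.59. As single genes, 4 of 10 β cell markers fell (6 with the block, where 1 rose), and none of the 11 stellate cell and fibroblast markers passed (7 fell with the block). The endothelial ratios were 1.5, 0.845, 1.57 and 1.005, and those of the licensing genes 2.33, 1.85, 1.35 and 1.39. The part of these cells in the licensing values was not tested.

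**Figure D5:**
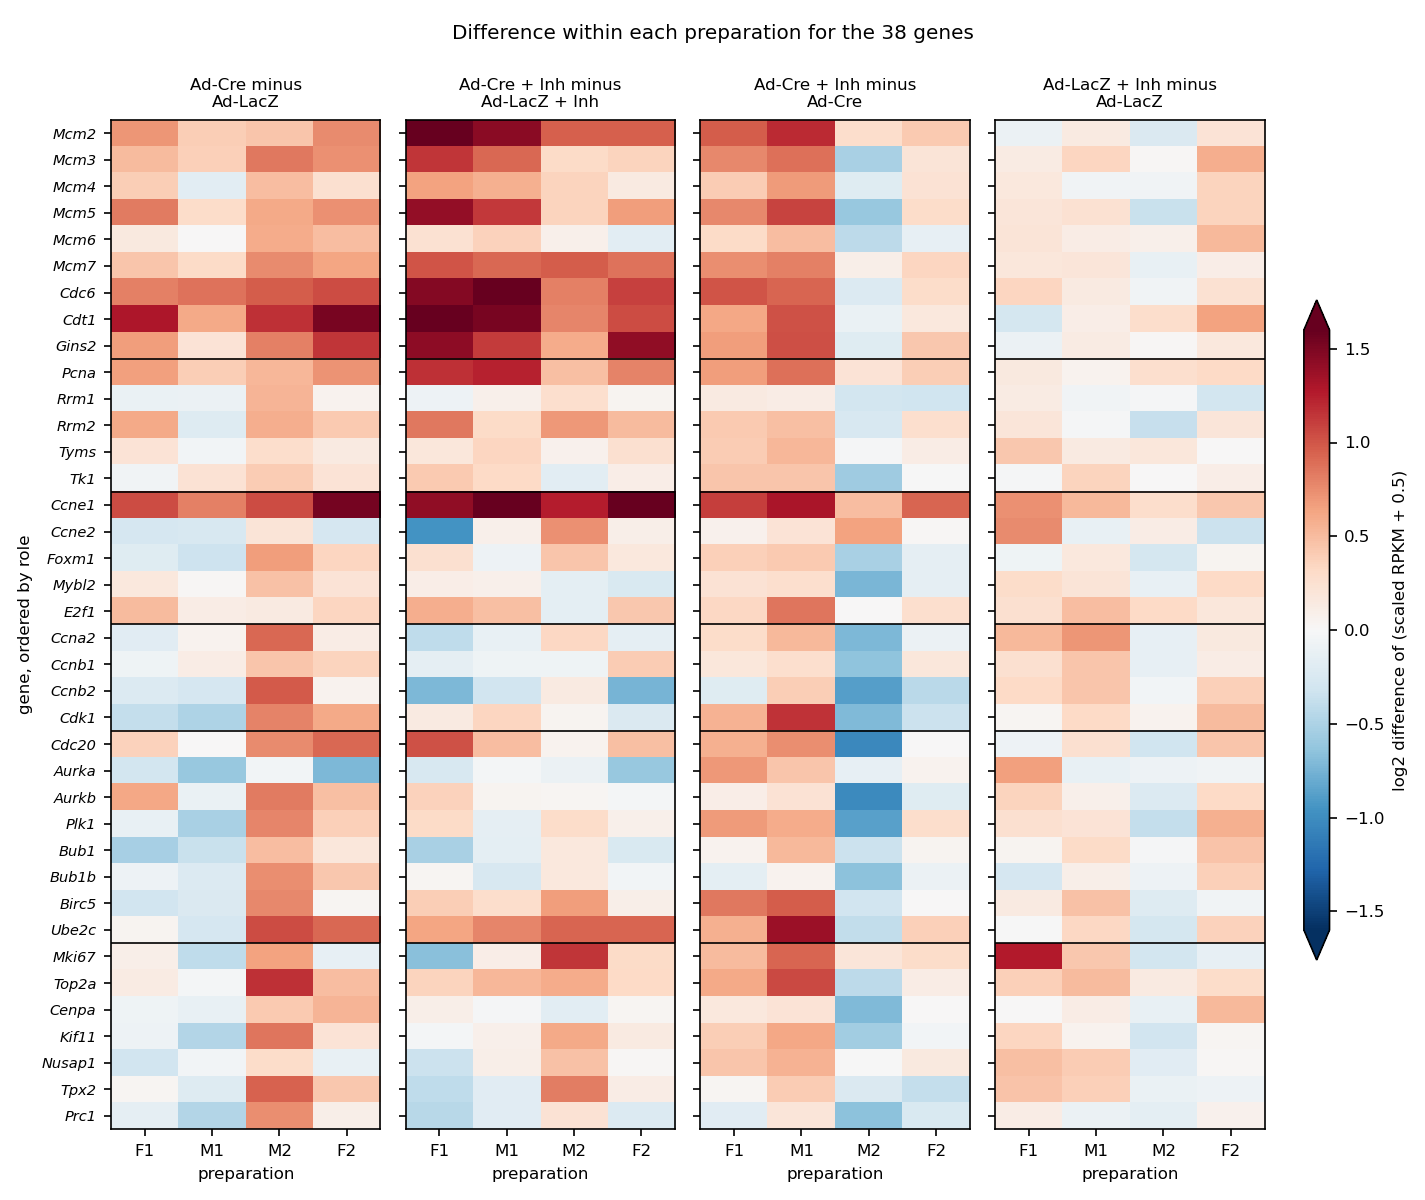
Log2 difference of scaled RPKM + 0.5 within each preparation (columns) for the 38 genes (rows, by role, with lines between roles) in the 4 comparisons, red for higher and blue for lower. Licensing genes, Pcna and Ccne1 are red in each preparation of both virus comparisons, except Mcm4 and Mcm6, which include values near or below 0; mitotic genes are mixed, and in the third panel F1 and M1 are mostly red and M2 mostly blue.

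The effect of JNK inhibition was read within each virus. In the libraries labelled Ad-Cre, 0.0% of all genes and none of the 35 passed the adjusted p of limma when the inhibitor was added. At an unadjusted p under 0.05 with a fold change above 1.2, 5 of the 35 were higher and none lower, 14.3%, while 4.79% of all genes were higher and 2.76% lower. They were Ccne1 (log2 difference 0.96 ± 0.20, adjusted p = 0.283), Mcm2 (log2 difference 0.72 ± 0.23), Pcna (log2 difference 0.54 ± 0.20), Mcm7 (log2 difference 0.50 ± 0.14) and Mki67 (log2 difference 0.49 ± 0.18). Ccne1 means were 5.62 ± 1.76 RPKM without and 10.1 ± 2.52 RPKM with the inhibitor (SD, n = 4), and the 2 groups did not overlap. With the preparation as a block, Ccne1 passed (adjusted p = 0.0371), alone among the 35 (2.86%), as did 2.85% of all genes in the same direction. After scaling, these 5 genes were higher in 4 of 4 preparations. With RPKM as deposited, Ccne1 and Mcm2 were still higher in each, while Pcna, Mcm7 and Mki67 were lower with the inhibitor in M2. The direction of these last genes in M2 thus depended on the scaling.

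The preparations again differed. The median log2 difference over the 9 licensing genes was 0.74, 0.93, -0.2 and 0.3, and over the 4 mitotic cyclins and Cdk1 0.24, 0.46, -0.71 and -0.22. The stellate cell and fibroblast marker sum with the inhibitor was 0.708, 0.568, 0.404 and 0.602 times that without it, with 6, 3, 0 and 1 of 11 genes higher. The macrophage ratios were 2.47, 1.73, 1.29 and 1.17. The 4 δ cell markers were each higher in every preparation, with ratios of 1.51, 1.38, 2.75 and 2.17, and the α cell ratios were 1.04, 0.985, 2.0 and 1.43. The lymphocyte ratios were 2.37, 1.04, 0.496 and 0.423. The part of these cells in the differences between preparations was not tested.

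In the libraries labelled Ad-LacZ, the inhibitor changed 0.176% of all genes and none of the 35 at the adjusted p. At the unadjusted p with the 1.2-fold limit, 2 of the 35 were higher, 5.71%, and none lower, while 3.21% of all genes were higher and 2.05% lower. They were Ccne1, from 2.26 ± 0.364 to 3.32 ± 0.116 RPKM (log2 difference 0.49 ± 0.10, adjusted p = 0.171), and E2f1, from 4.61 ± 0.253 to 5.81 ± 0.705 RPKM (log2 difference 0.31 ± 0.13, adjusted p = 0.77). Both were higher in 4 of 4 preparations with no overlap. Over all 35 the median log2 difference was 0.16, against 0.00 over all genes tested. The stellate cell and fibroblast sum with the inhibitor was 1.02, 1.35, 2.25 and 2.08 times that without it, with 9, 10, 10 and 10 of 11 genes higher, and the macrophage ratios were 1.8, 2.2, 3.97 and 3.55. As single genes, 4 of 11 macrophage markers rose (1 with the block). The Ad-LacZ libraries serve both this comparison and the first, and the Ad-Cre libraries serve 2 comparisons likewise, so these values are not independent of each other.

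Whether the difference between viruses changed with the inhibitor was tested as an interaction over all 16 libraries. None of the 35 and 0.0% of all genes passed the adjusted p of limma. At the unadjusted p, Mcm2 (0.71 ± 0.28) and Mcm7 (0.41 ± 0.18), both with an adjusted p of 0.999, had a larger difference with the inhibitor, and Mcm2 alone was past the 1.5-fold limit, 2.86% of the 35 against 0.473% of all genes. Without the fold limit, 210 of all 13103 genes had a positive interaction at the unadjusted p and 212 a negative one. For Ccne1 the interaction was 0.47 ± 0.22, with a 95% interval of -0.001 to 0.94. The interaction of Cre with the sex label of the preparation used the Ad-Cre and Ad-LacZ libraries without the inhibitor, with 2 preparations of each sex. It had no gene past either threshold among the 35, and 0.0% of all genes at the adjusted p.

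The neighbouring genes of the cycle were taken as lists. Of 44 other replication genes tested, 9 rose and 2 fell with Ad-Cre without the inhibitor, and 11 rose and 2 fell with it. The rises are 20.5% and 25.0% of the list, against 6.01% and 8.52% of all genes. The largest rises were Fen1, the flap endonuclease of lagging-strand synthesis (1.19 ± 0.18 without and 1.71 ± 0.38 with the inhibitor), and Cdc45, the helicase cofactor (1.19 ± 0.14 and 1.66 ± 0.20), followed by Ung, uracil-DNA glycosylase (1.08 ± 0.20), without the inhibitor and Rpa2, a single-strand binding protein (1.62 ± 0.27), with it. The falls were the origin recognition subunits Orc5 (-0.78 ± 0.10 and -0.89 ± 0.16) and Orc6 (-0.54 ± 0.10 and -0.94 ± 0.15). They are 4.55% of the list in both, below the 8.02% and 9.28% of all genes. The list medians were 0.20 and 0.35. With the block, 10 rose and 3 fell without the inhibitor (22.7% and 6.82%, against 12.7% and 15.0% of all genes). With the inhibitor and the block, 15 rose and 2 fell (34.1% and 4.55%, against 10.4% and 10.3% of all genes).

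Of 43 other mitosis genes tested, 2 rose and 2 fell without the inhibitor and 3 rose and 2 fell with it. The rises are 4.65% and 6.98% of the list, below the 6.01% and 8.52% of all genes, and the falls 4.65% in both, below 8.02% and 9.28%. Cks1b, a CDK-binding subunit (0.82 ± 0.14 and 0.73 ± 0.15), and Ncapd2, a condensin subunit (0.43 ± 0.11 and 0.79 ± 0.17), rose in both comparisons, and Stmn1, stathmin, with the inhibitor (0.74 ± 0.18). Spc25, of the kinetochore (-1.35 ± 0.24 and -1.84 ± 0.29), and Ckap5, a microtubule-binding protein (-0.53 ± 0.12 and -0.61 ± 0.16), fell in both. Spc25 lay far above the median of 2.20 RPKM of the 38 genes. Its group means were 71.3 (Ad-LacZ), 28.2 (Ad-Cre), 117 (Ad-LacZ + JNK Inh) and 30.5 RPKM (Ad-Cre + JNK Inh). Exon overlap with other genes was examined for the 38 genes only, and whether Spc25 reads dividing cells here was not tested. The list medians were 0.14 and 0.18, against 0.01 and -0.045 over all genes tested. With the block, 4 rose and 2 fell without the inhibitor (9.3% and 4.65%, against 12.7% and 15.0% of all genes). With the inhibitor and the block, 6 rose and 1 fell (14.0% and 2.33%, against 10.4% and 10.3% of all genes).

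Of 33 genes of G1 control and cell cycle brakes, 3 rose and 1 fell without the inhibitor (5 and 1 with the block), and 5 rose and 1 fell with it. The rises are 9.09% and 15.2% of the list, against 6.01% and 8.52% of all genes, and the falls 3.03% in both, below 8.02% and 9.28%. With the block the rises were 15.2% in both, against 12.7% and 10.4% of all genes. The rises came first from the CDK inhibitor genes: Cdkn1a, encoding p21, was at 50.7, 49.5, 98.1 and 60.1 RPKM in Ad-LacZ and 212, 171, 246 and 236 RPKM in Ad-Cre (1.78 ± 0.18, adjusted p = 0.00215; 1.90 ± 0.21 with the inhibitor). Cdkn1c, encoding p57, had log2 differences of 1.23 ± 0.24 and 2.03 ± 0.46. Ccnd1, cyclin D1, rose from 37.7 ± 3.45 to 71.2 ± 12.7 RPKM (SD, n = 4; 0.90 ± 0.17, adjusted p = 0.0157) and again with the inhibitor (1.27 ± 0.28). Rb1, the retinoblastoma gene, fell without the inhibitor (-0.36 ± 0.10), and Cdkn2b, encoding p15, with it (-0.47 ± 0.13). Ccnd2, the main D-type cyclin of mouse islets (-0.08 ± 0.21), Ccng1, a p53 target (0.29 ± 0.17), and Myc (0.27 ± 0.22) did not pass. When the inhibitor was added to Ad-Cre or to Ad-LacZ, limma called no gene of the 3 lists. With the block, 1 replication and 1 G1 gene rose in Ad-Cre (2.27% and 3.03% of these lists, against 2.85% of all genes). At an unadjusted p under 0.05 the replication list (44 tested) had 6 higher and 0 lower in Ad-Cre and 3 and 0 in Ad-LacZ. The mitosis list (43 tested) had 5 and 0 and 2 and 0, and the G1 list (33 tested) 2 and 2 and 0 and 3. Of all 13103 genes, 641 were higher and 374 lower in Ad-Cre, and 453 and 352 in Ad-LacZ.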

How the data were processed

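Poly(A) RNA of 16 islet cell cultures was sequenced as paired reads of 150 bases. The authors deposited RPKM per gene (aligned to GRCm38 per the labels); how counts became RPKM is not given in the sources used here, and 3 columns that no label names were not used. Groups came from the labels. RPKM was scaled by trimmed means of M values (30% of ratios and 5% of levels trimmed), and genes with a mean above 0.5 RPKM were tested on log2(RPKM + 0.5) with limma 3.58.1 (R 4.3.3, eBayes with trend), comparing 4 with 4 libraries, with Benjamini-Hochberg adjustment over 13103 genes. Interactions used all 16 libraries. The pseudocount understates differences of weak genes. Fold limits of 1.5 (virus, interaction) and 1.2 (inhibitor) went with the unadjusted p. Single genes were also tested by exact permutation over libraries. The fit was tested on simulated data. Reads per gene were estimated from RPKM, estimated depth and GENCODE M21 exon length; depth limits the precision of weak genes.

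The members, lists and rules were chosen with earlier results of these data known. The 38 genes are all named; values per library are given for genes past an adjusted p of 0.05 in any pairwise comparison, with or without the block, and for 7 fixed genes (Mki67, Top2a, Pcna, Cdk1, Ccnb1, Mcm2 and E2f1). List genes are named if among the 3 largest rises or falls that passed, apart from Cdkn1a, Ccnd1, Ccnd2, Ccng1 and Myc. The 4 libraries of a preparation carry the same animal numbers in the labels, and their deviations from group means correlated at 0.11 to 0.766 (across genes), so a fit with the preparation as a block was an alternative. The p-values measure the spread between 4 preparations of each group. Other alternatives were pseudocounts of 0.1 and 1, other filters, no scaling, quantile normalization, 1 fit over all libraries, eBayes without trend and leaving out libraries.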

Additional observations from a re-analysis of the deposited data

Results flagged for a closer look

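Among 152 tests of 1 library against the other 3 of its group (38 genes in 4 groups), 3 values stood apart by Dixon's test. Chance gives about 1 in 20 groups, so 3 of 152 is fewer than chance alone would give. The 3 values come from 2 libraries of Ad-Cre + JNK Inh, M1 and F1. Cdk1 was at 1.81 RPKM in M1, against 0.919 to 1.05 RPKM in the other preparations. Bub1, a spindle checkpoint kinase, was at 0.205 RPKM in F1, against 0.63 to 0.69, and Prc1, a cytokinesis protein gene, at 0.675 RPKM in F1, against 1.11 to 1.17.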

How the results depend on the processing

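Without the inhibitor, the number of the 35 genes that passed went from 9 to between 0 and 3 when 1 preparation was left out (over all genes, from 1839 to between 86 and 708), and to 0 when M2 and F2 were both left out in the fit with the replicate block, in which 0 of all 13103 genes passed. With the inhibitor, it went from 9 to between 1 and 11 when 1 preparation was left out: 5 without F1, 2 without M1, 11 without M2 and 1 without F2. For the inhibitor in Ad-Cre, the count went from 0 to 1, Ccne1, with the replicate block and with all 16 libraries in 1 fit. The block changed no call among the 35 genes beside those given in the results. With 1 preparation left out, the log2 difference without the inhibitor ran from -0.143 (without M2) to 0.205 for Mki67 and from -0.088 (without M2) to 0.343 for Cdk1, which was also negative without F2 (-0.025). Without M2 and F2 it was -0.151 for Mki67, -0.438 for Cdk1 and -0.11 for Ube2c. With the inhibitor and 1 preparation left out, it ran from -0.084 (without M2) to 0.517 for Mki67, from -0.094 (without F2) to 0.088 for Ccnb1 and from -0.015 (without M1) to 0.175 for Cdk1. Without M2 and F2 it was -0.28 for Mki67 and -0.104 for Ccnb1. With RPKM as deposited it was -0.040 for Ccnb1 and -0.03 for Cdk1, and without the Ad-Cre + JNK Inh library of F2 it was -0.073 for Ccnb1. None of these had passed the test in that comparison. Of the alternatives for single genes that passed, 204 kept the call and 71 lost it in the same direction, and of those that did not pass, 300 kept side and direction, 10 passed and 14 turned direction. The causes were not tested. Leaving out M2 and F2 together, whose Ad-Cre libraries had the highest stellate cell and fibroblast sums, was chosen after seeing the data. Genes under 1 RPKM, such as Gins2, Cdc6 and Ccnb1, rest on few reads, which limits the size of difference that can be seen.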
